A study of Mus musculus with 6 samples.

Results

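The mitochondrial respiratory chain was described through 57 genes, 44 encoded in the nucleus and 13 in the mitochondrial genome, out of 37991 genes listed in each file. The genes were taken from a list of names and matched by Ensembl identifier, with the older and newer names of the ATP synthase subunits read as the same genes, and all 57 were found. The nuclear set held 15 subunits of complex I, 4 of complex II, 6 of complex III, cytochrome c, 9 subunits of complex IV and 9 of complex V. All 44 nuclear genes and 12 of the 13 mitochondrial genes passed the filter on low counts, and mt-Nd4l had 0 reads in all 6 libraries.

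RNA was sequenced in bulk from mouse tumours of a cutaneous squamous cell carcinoma line, cells that arise from skin keratinocytes. The genotype label was Kindlin-1 WT for 3 libraries and Kindlin-1 Null, a knockout, for 3 libraries. Kindlin-1, the product of Fermt1, is an adaptor that binds the tails of beta integrins, and the study compared expression with and without it. The sources used here do not give the strain, sex or age of the mice, or say whether each genotype was 1 clone. By their titles, wild-type libraries 1 and 2 carry 1 mouse number and differ in a letter, L or R, whose meaning is not stated. Null libraries 2 and 3 also carry an equal number in their titles, but the name of the deposited data of null library 3 holds a different one, so whether that pair shared a mouse is not settled. The p-values measure the spread between libraries that may not be separate animals. In bulk tumour RNA, fewer cells of a type and less RNA per cell cannot be told apart.

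Reads assigned to genes ranged from 161711 in wild-type library 2 to 31487255 in null library 2. In this order of libraries 1 to 3, which is kept throughout, Fermt1 reads numbered 16, 2 and 1040 for wild type and 0, 2 and 2 for the knockout. Its level was 12.5, 12.3 and 64.9 CPM (counts relative to the library size, scaled between libraries by the TMM method) in wild type and 0, 0.06 and 0.39 CPM in the knockout. It went with the labels (log2 fold change -8.18, edgeR adjusted p = 0.000297). Of 12 keratinocyte markers 8 were tested, and 1 was higher and 1 lower in null tumours at an edgeR adjusted p under 0.05. Their log2 fold changes ranged from -2.037 to 2.255. For comparison, 2.26% of all genes tested were higher and 3.52% lower. The summed level of the 12 was 76.1 to 135 CPM in wild type and 65.5 to 125 CPM in null tumours, and the basal keratin Krt5 had at most 5 reads in any library. The summed level of 5 fibroblast markers was at least 6540 CPM in every library, and 1 of them was likewise called higher and 1 lower. Wild-type library 3 stood apart among the genes described here, since it held the lowest value of 32 of the 44 nuclear members (11 of the others were lowest in wild-type library 2).

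The respiratory chain passes electrons from NADH and succinate to oxygen through complexes I to IV and uses the resulting proton gradient to drive complex V, the ATP synthase. Most of its subunits are encoded in the nucleus, made in the cytosol and imported, while the mitochondrial genome encodes the core hydrophobic subunits of complexes I, III, IV and V, and complex II is wholly nuclear. Mitochondrial messages are cut from long transcripts of both strands of the circular genome, so their levels depend on transcription, cleavage and stability within the organelle. Squamous carcinomas use both glycolysis and respiration, and striated muscle is among the tissues richest in mitochondria.

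The 2 sets have separate control regions. The nuclear promoters are shown because most nuclear members had positive fold changes, and any link between promoter letters and fold change was not tested. In RefSeq promoters (GRCm38.p6, 250 bases before to 50 after the start, both strands searched), 33 of the 44 nuclear members had an entry. The NRF-1 half-site TGCGCA was in 8 of the 33 (24.2%), against 8.79% of 27025 genes with a promoter entry. The full NRF-1 palindrome, which a half-site can overlap at its ends, was in 2 (6.06%, against 1.07%). The YY1 core AAGATGGC was in 5 (15.2%, against 3.19%), and the ETS family site CCGGAAGT, the kind bound by GABP, in 2 (6.06%, against 4.31%). These are matches of letters in a window, with no measure of binding. The 250 bases before the start are printed for Ndufb8 and Cox7a2, the members that passed the test of genotype, and for 3 further members, chosen after their values were seen, that hold a match there. Those 3, Cox6a1, Cox5b and Atp5h, all had positive log2 fold changes (0.8, 0.85 and 0.72). Matches before the start were also in Ndufa5 (-0.27, the lowest of the nuclear members), Ndufa9 (0.63), Sdha (0.42), Sdhd (0.8) and Atp5j (0.68), not printed here. Capitals mark the matches.
Ndufb8, chr19:44555443-44555692, minus strand: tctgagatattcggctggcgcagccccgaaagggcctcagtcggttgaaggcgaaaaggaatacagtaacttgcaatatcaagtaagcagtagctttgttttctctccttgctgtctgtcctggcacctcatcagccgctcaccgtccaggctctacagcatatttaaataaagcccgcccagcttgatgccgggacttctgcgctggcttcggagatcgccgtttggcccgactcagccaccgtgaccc
Cox7a2, chr9:79759854-79760103, minus strand: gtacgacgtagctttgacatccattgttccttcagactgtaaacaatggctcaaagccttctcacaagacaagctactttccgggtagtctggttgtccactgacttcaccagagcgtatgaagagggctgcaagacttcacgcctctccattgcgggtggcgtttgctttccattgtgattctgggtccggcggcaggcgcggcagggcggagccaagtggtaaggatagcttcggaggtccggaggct
Cox6a1, chr5:115348959-115349208, minus strand: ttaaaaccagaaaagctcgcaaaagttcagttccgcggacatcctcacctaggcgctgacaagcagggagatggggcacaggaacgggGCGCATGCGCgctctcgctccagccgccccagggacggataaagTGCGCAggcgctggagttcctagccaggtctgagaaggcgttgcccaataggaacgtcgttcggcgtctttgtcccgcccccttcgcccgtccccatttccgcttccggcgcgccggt
Cox5b, chr1:36691237-36691486, plus strand: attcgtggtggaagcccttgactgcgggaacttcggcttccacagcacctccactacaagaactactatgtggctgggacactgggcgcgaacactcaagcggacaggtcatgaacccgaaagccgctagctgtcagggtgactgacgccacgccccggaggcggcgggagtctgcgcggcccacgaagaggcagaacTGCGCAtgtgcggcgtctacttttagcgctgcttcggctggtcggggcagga
Atp5h, chr11:115419920-115420169, minus strand: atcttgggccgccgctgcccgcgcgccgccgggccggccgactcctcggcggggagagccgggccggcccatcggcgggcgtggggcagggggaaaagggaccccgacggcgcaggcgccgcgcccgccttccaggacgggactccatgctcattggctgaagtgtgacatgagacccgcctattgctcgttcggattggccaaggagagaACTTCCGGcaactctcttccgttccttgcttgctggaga
In the Cox6a1 window the palindrome began 162 bases and the half-site 118 bases before the start. The Cox5b half-site began 52 bases before it, and the ETS match of Atp5h, on the opposite strand, 39 bases before it. Ndufb8 had no match in the printed stretch and a half-site and a YY1 core 5 and 38 bases after the start, and Cox7a2 had no match in its whole window.

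Of the 44 nuclear members 2 rose in null tumours and 0 fell (quasi-likelihood test of edgeR, Benjamini-Hochberg adjusted over all genes, threshold 0.05). They were Ndufb8 of complex I and Cox7a2 of complex IV. The share called higher was 4.55%, against 2.26% of the 11887 genes tested (5.79% were called in either direction). At an unadjusted p under 0.05, 16 nuclear members were higher (36.4%, against 12.1% of all genes tested) and 0 lower, and 25.1% of all genes tested reached it in either direction. The log2 fold change (null minus wild type) was positive for 41 of 44, with a median of 0.51 against 0.01 over all genes tested. The same 41 to 3 split was obtained under RLE size factors, upper-quartile scaling and scaling without the mitochondrially encoded genes and the nuclear gene Lars2. All 3 null libraries lay above all 3 wild-type libraries for 21 of 44 (47.7%, against 16.2% of all genes tested), and for 0 of 44 all lay below (against 14.3%, or 30.5% without overlap in either direction). The median was 0.25 without wild-type library 3, with 39 of 44 positive, and 0.19 with an offset for transcript length and GC content, with 30 of 44 positive.

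**Figure D1:**
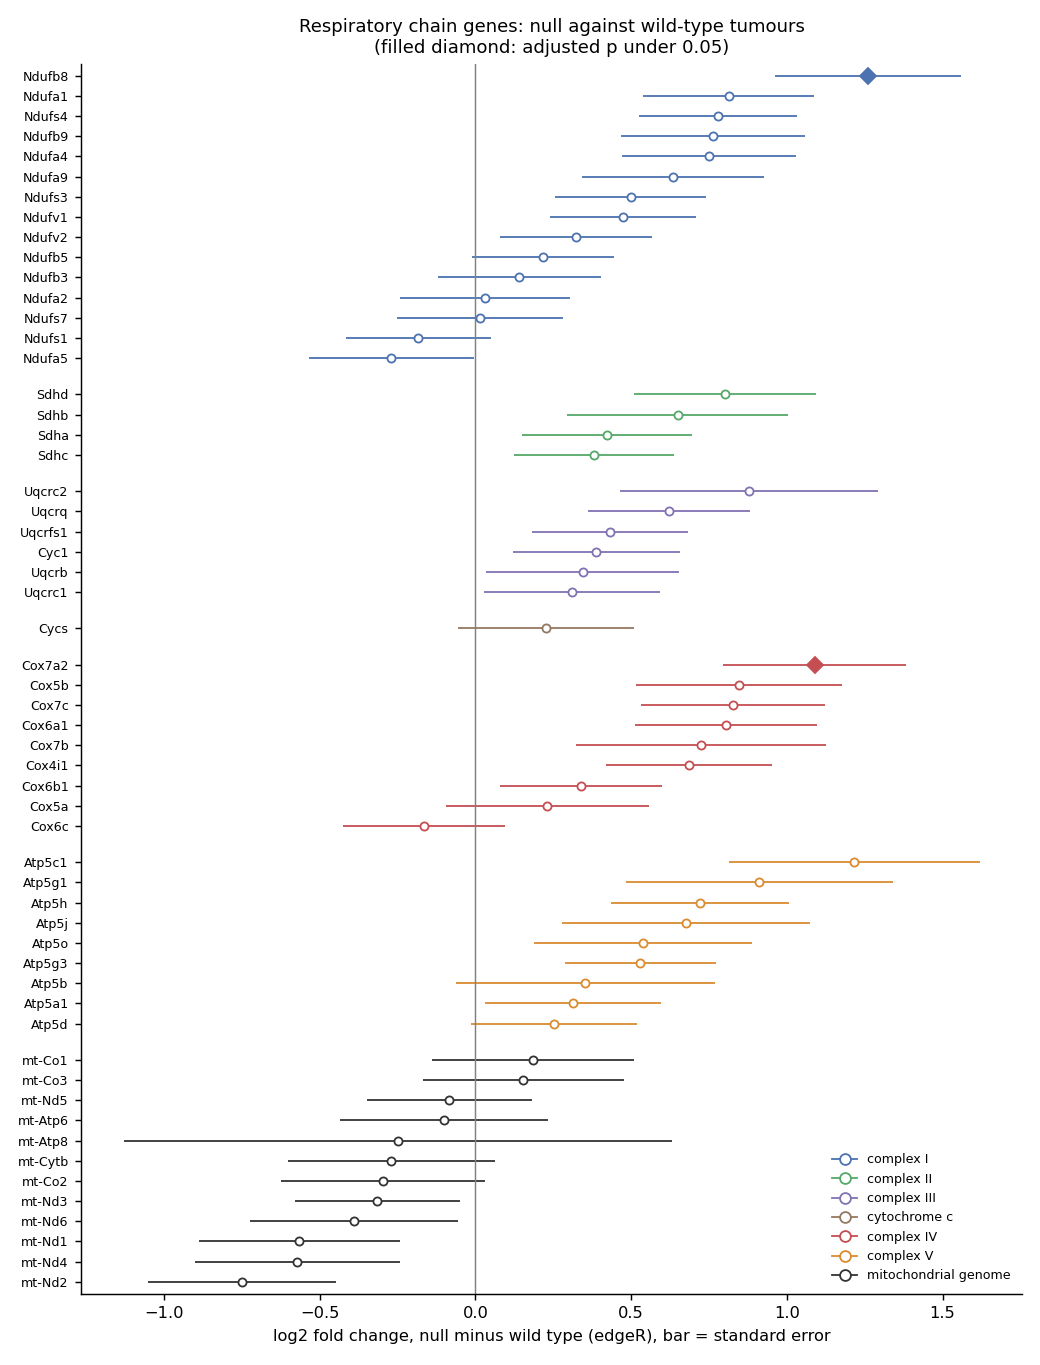
Log2 fold change of each of the 56 tested members (horizontal axis, null minus wild type; bars are standard errors of the edgeR fit over 3 libraries per group), grouped by complex, with filled diamonds at an adjusted p under 0.05. The nuclear members lie mostly to the right of 0, with Ndufb8 and Cox7a2 past the threshold, while 10 of the 12 mitochondrially encoded members lie to the left of 0 and none of them passed.

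Complex I takes electrons from NADH. Its 15 nuclear members had a median log2 fold change of 0.47, with 13 positive. The 1 called, Ndufb8, made up 6.67%, against 2.26% of all genes tested called higher. All null libraries lay above all wild-type libraries for 8 members (53.3%, against 16.2% of all genes tested). The median was 0.11 with the length and GC offset, with 9 of 15 positive. Ndufb8, an accessory subunit of the membrane arm, stood at 106, 86 and 65.5 CPM in wild type and at 269, 154 and 191 CPM in null tumours. Every null library lay above every wild-type library, and null library 1 was the highest. Ndufb8 rose 2.4-fold, with means of 85.9 ± 20.4 and 204.7 ± 58.8 CPM (SD, n = 3; log2 difference 1.26, SE 0.3, edgeR adjusted p = 0.0295). The value of wild-type library 2 rested on 14 reads (95% exact Poisson interval 47 to 144 CPM, counting error only). The call was lost when wild-type library 2 was left out (edgeR adjusted p = 0.057) or 3 (0.0913), without null library 1 (0.104) or 3 (0.076), after summing libraries with an equal mouse number in their titles (0.0631), after summing only the wild-type pair (0.0606) and with the length and GC offset (0.0787).

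The lowest fold change of complex I was that of Ndufa5, a subunit of the matrix arm, whose level was 64.8, 49.2 and 94.2 CPM in wild type and 56.2, 71.9 and 57.1 CPM in null tumours. The groups overlapped (log2 fold change -0.27, SE 0.26, edgeR adjusted p = 0.546). Ndufs1, which carries iron-sulfur clusters of the electron path, was the other member below 0 (-0.18), and Ndufs7, which bears the cluster nearest the quinone site, and Ndufa2 were at 0.02 and 0.03. The flavoprotein subunits Ndufv1 and Ndufv2, where NADH is oxidised, were at 0.47 and 0.32, and neither passed. Ndufa1, Ndufs4, Ndufb9 and Ndufa4 followed Ndufb8 with log2 fold changes of 0.81, 0.78, 0.76 and 0.75 and edgeR adjusted p values of 0.0919, 0.0842, 0.134 and 0.122. Ndufa4 is listed with complex I by its name, though its protein is now placed in complex IV. Ndufa9, Ndufs3, Ndufb5 and Ndufb3 stood between, from 0.63 to 0.14.

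Complex II, succinate dehydrogenase, also works in the citric acid cycle. All 4 of its genes had positive log2 fold changes (median 0.54) and none passed in edgeR. At an unadjusted p under 0.05, 1 was higher (25%, against 12.1% of all genes tested). The median was 0.2 without wild-type library 3 and 0.21 with the length and GC offset. DESeq2 called none of them, and limma-voom with mouse number as a random effect called Sdhb (1.12, adjusted p = 0.0485), while edgeR on libraries summed by mouse number called 0 of the 4. Sdhd, a membrane anchor, had the highest fold change, with levels of 139, 98.3 and 113 CPM in wild type and 295, 157 and 178 CPM in null tumours. The groups did not overlap (log2 fold change 0.8, SE 0.29, edgeR adjusted p = 0.114). Sdhc, the other membrane anchor, had the lowest, with levels of 124, 117 and 89.9 CPM in wild type and 173, 127 and 127 CPM in null tumours. Its null libraries 2 and 3 lay just above wild-type library 1 (0.38, SE 0.26, edgeR adjusted p = 0.365). Sdha, the flavoprotein that oxidises succinate, and the iron-sulfur subunit Sdhb stood at 0.42 and 0.65.

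Complex III passes electrons from ubiquinol to cytochrome c. All 6 members were positive (median 0.41, or 0.19 without wild-type library 3 and 0.26 with the length and GC offset, where 4 of 6 were positive). None passed in edgeR, DESeq2 or limma-voom. Only Uqcrq (0.62), a small subunit near the quinone site, was at an unadjusted p under 0.05, and only its groups did not overlap. That is 16.7% of the 6 by either count. Of all genes tested, 12.1% were higher at that p and 16.2% had all null libraries above, so these counts were near the background. Uqcrc2, a core subunit, had the highest fold change, with levels of 103, 98.3 and 30.9 CPM in wild type and 169.5, 94.8 and 126.5 CPM in null tumours. Null library 2 lay below wild-type libraries 1 and 2, and wild-type library 3 lay far below the rest (log2 fold change 0.88, SE 0.41, edgeR adjusted p = 0.208, and 0.32 without wild-type library 3). Uqcrc1, the other core subunit, had the lowest, with levels of 165.5, 154 and 90.7 CPM in wild type and 136, 175 and 180 CPM in null tumours, and the groups overlapped (0.31, edgeR adjusted p = 0.517). The catalytic subunits Uqcrfs1, the Rieske iron-sulfur protein, and Cyc1, cytochrome c1, stood at 0.43 and 0.39. Cycs, the mobile carrier cytochrome c, was at 92.9, 79.9 and 47.9 CPM in wild type and 83.8, 85.1 and 78.7 CPM in null tumours. Its null values lay within the wild-type range (0.23, edgeR adjusted p = 0.645).

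Complex IV, cytochrome c oxidase, reduces oxygen. Its 9 nuclear members had a median log2 fold change of 0.72, with 8 positive. The 1 called, Cox7a2, made up 11.1%, against 2.26% of all genes tested called higher. All null libraries lay above all wild-type libraries for 5 members (55.6%, against 16.2% of all genes tested). The median was 0.4 without wild-type library 3 and turned negative with the length and GC offset (-0.08, with 4 of 9 positive). Cox7a2, the widely expressed isoform of a small membrane subunit, stood at 118, 67.6 and 57.8 CPM in wild type and 182, 180 and 163.5 CPM in null tumours. The null libraries lay close together and above every wild-type library. Cox7a2 rose 2.13-fold, with means of 81.1 ± 32.2 and 175 ± 10.3 CPM (SD, n = 3; log2 difference 1.09, SE 0.29, edgeR adjusted p = 0.0476). The call was lost when wild-type library 2 was left out (edgeR adjusted p = 0.0879) or 3 (0.127), without null library 1 (0.131), 2 (0.0931) or 3 (0.116), after summing libraries of equal mouse number (0.128) or only the wild-type pair (0.0827), with a filter of 10 CPM in 3 libraries (0.0552) and with the length and GC offset (0.14).

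Cox6c was the only nuclear member of complex IV below 0 (the contrast of its read share, given here, was chosen after its values were seen). It stood at 254.5, 264 and 166 CPM in wild type and at 208, 189 and 202 CPM in null tumours, with overlap (log2 fold change -0.16, SE 0.26, edgeR adjusted p = 0.724). As a share of all reads of the 44 nuclear members, which needs no scaling between libraries, Cox6c took 3.09%, 3.43% and 3.33% in wild type and 1.99%, 2.09% and 2.07% in null tumours. The 2 ranges did not overlap, and the difference was not tested. Such shares did not overlap for 11 of the 44 nuclear members, 6 with null higher and 5 with null lower, the latter being Cox6c, Ndufs1, Ndufs7, Cycs and Atp5a1. By CPM, a measure unlike these shares, 30.5% of all genes tested did not overlap in either direction, so a lack of overlap was common. Cox5b (0.85), Cox7c (0.83), Cox6a1 (0.8), Cox7b (0.72) and Cox4i1 (0.69) followed Cox7a2, and Cox6b1 (0.34) and Cox5a (0.23) were nearer 0. Among these, limma-voom with mouse number as a random effect called Cox5b (adjusted p = 0.0291), while edgeR on libraries summed by mouse number called 0 of the 9.

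Complex V makes ATP. All 9 members were positive (median 0.54) and none passed in edgeR. At an unadjusted p under 0.05, 3 were higher (33.3%, against 12.1% of all genes tested). The median was 0.16 without wild-type library 3, with 8 of 9 positive, and 0.28 with the length and GC offset. Atp5c1, the central stalk subunit gamma, had the highest fold change, with levels of 197.5, 154 and 51.9 CPM in wild type and 317, 272 and 312 CPM in null tumours. The groups did not overlap and wild-type library 3 lay far below the others (log2 fold change 1.22, SE 0.4, edgeR adjusted p = 0.0871, and 0.7 without wild-type library 3). Atp5c1 passed in DESeq2 (adjusted p = 0.0414), in limma-voom with mouse number as a random effect (0.0452) and in edgeR without wild-type library 1 (0.0335), but not with libraries summed by mouse number (0.125). Atp5g1 passed in limma-voom (0.0326) and in edgeR without wild-type library 1 (0.0305), and Atp5h in limma-voom (0.0492), and neither was called on the sums. Atp5d, the stalk subunit delta, had the lowest fold change, with levels of 427, 442 and 290.5 CPM in wild type and 424, 470 and 472 CPM in null tumours, with overlap (0.25, edgeR adjusted p = 0.58). Atp5b, the catalytic beta subunit, showed the gap of wild-type library 3 most clearly, at 1117, 1358 and 331 CPM in wild type and 1166, 1099 and 1272 CPM in null tumours. Wild-type libraries 1 and 2 thus lay within or above the null range, and the log2 fold change went from 0.35 to -0.09 without library 3. Of the proteolipid genes of the membrane ring, Atp5g1 stood at 0.91 and Atp5g3 at 0.53, and the peripheral stalk genes Atp5h, Atp5j and Atp5o stood at 0.72, 0.68 and 0.54.

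**Figure D2:**
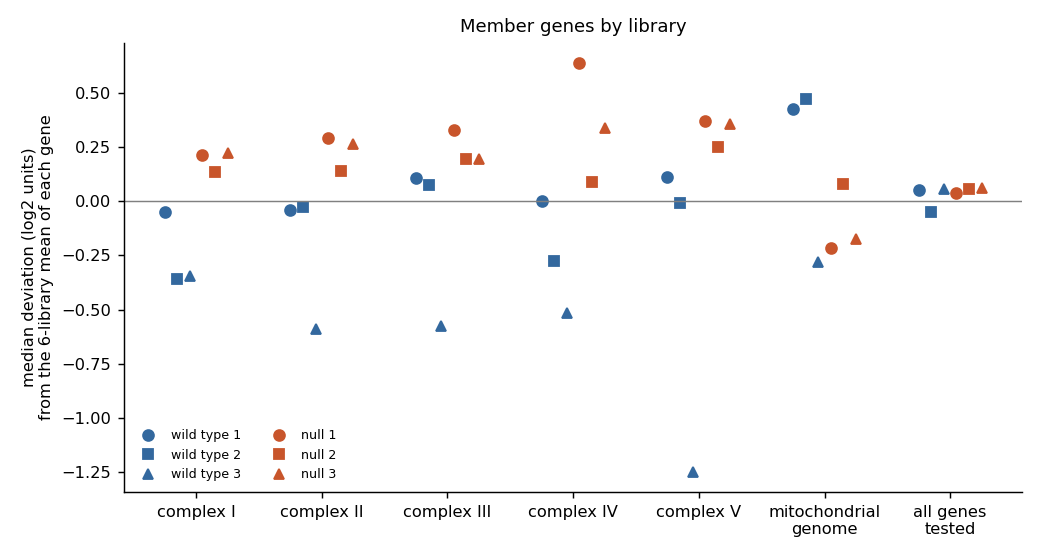
Median over the members of each complex of the log2 deviation from the gene's own mean over 6 libraries (vertical axis, log2 of CPM plus 1), by library, with wild type in blue, null in orange and the medians of all tested genes at the right. The null libraries lie above 0 for every nuclear complex, wild-type library 3 is lowest for complexes II to V and reaches -1.25 for complex V, and all genes tested stay between -0.05 and 0.06.

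The medians by library showed how much of the spread lay within wild type. Over the 44 nuclear members the median log2 deviation was 0.02, -0.25 and -0.56 for wild type and 0.39, 0.18 and 0.28 for null tumours. The gap between wild-type libraries 1 and 3 was thus larger than that between wild-type library 1 and any null library. Null library 1 held the highest value of 26 of the 44 members. Read shares outside the tested genes also differed between the groups: reads in no gene were 7.15%, 8.75% and 12% in wild type and 5.84%, 5.55% and 4.63% in null tumours, and reads with several alignments reached 40% in wild-type library 3 against 32.9% to 35.9% elsewhere. Summed leukocyte markers were lowest in wild-type library 3 (1081 CPM, against 2620 and 3189 in the other wild-type libraries and 3121 to 4853 in null tumours). So were the summed fibroblast markers (6540 CPM, against 11020 to 13860 elsewhere) and endothelium markers (76.5 CPM, against 103 to 141 elsewhere). The keratinocyte, adipocyte and skeletal muscle sums were not lowest there. The part of these measures in the result was not tested.

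The mitochondrially encoded members mostly had fold changes below 0. None of 12 passed in edgeR, DESeq2 or limma-voom. At an unadjusted p under 0.05, 1 was lower, and 25.1% of all genes tested reached it in either direction. Log2 fold changes were negative for 10, and the median was -0.28 against 0.01 over all genes tested. Together they took 2.97%, 3.3% and 1.91% of the reads in genes in wild type and 2.05%, 2.62% and 2.41% in null tumours, with overlap. The median was -0.56 without wild-type library 3, with 12 of 12 negative, and -1.27 with the length and GC offset. Under that offset all 12 were negative, and mt-Nd2 (-1.83, edgeR adjusted p = 0.0193) and mt-Nd3 (-1.37, 0.0318) were called lower. Over all genes that fit called 564 in either direction, against 688 (5.79%) in the fit without the offset.

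The balance between the 2 genomes needs no scaling between libraries, because both sums come from the same library. The 44 nuclear members took 0.821%, 0.774% and 0.515% of the reads in genes in wild type and 0.996%, 0.907% and 0.95% in null tumours, with all null libraries higher. Reads of the mitochondrially encoded members over those of the nuclear members came to 3.62, 4.26 and 3.7 in wild type and 2.06, 2.89 and 2.54 in null tumours. The mean ratio was 3.86 ± 0.351 in wild type and 2.5 ± 0.419 in null tumours (SD, n = 3), and every null library lay below every wild-type library. Wild-type library 3, low for both sets, had a ratio like those of the other wild-type libraries. The same libraries differed in muscle markers: the summed level of 20 skeletal muscle markers was 641 to 1767 CPM in wild type and 58.6 to 150 CPM in null tumours, and 14 of the 16 tested fell (against 3.52% of all genes tested), with Myh7 at 0 reads in 5 of the 6 libraries. Of 7 adipocyte markers 3 were tested and 2 fell, Cfd (-4.69) and Lpl (-1.58), and Plin1 was at 0 reads in 5 of the 6 libraries. Their summed level was 90.9 to 189 CPM in wild type and 39.4 to 92.1 CPM in null tumours. The part of these cells in the ratio was not tested.

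**Figure D3:**
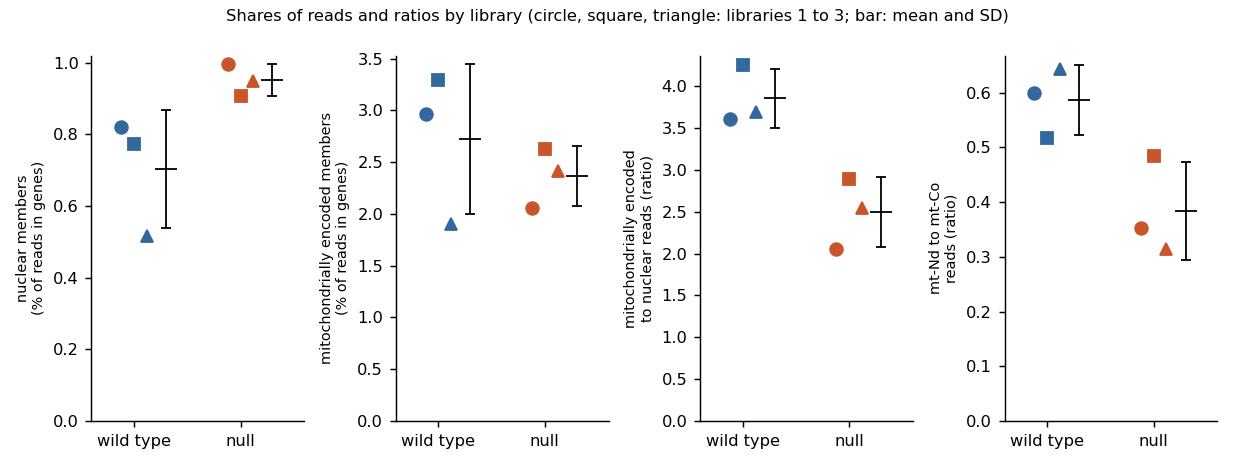
Panels from left to right plot, for each library, the nuclear members and the mitochondrially encoded members as a percentage of the reads in genes, the ratio of mitochondrially encoded to nuclear reads, and the ratio of mt-Nd to mt-Co reads (points are libraries, black bars the mean and SD of 3). The ratio of mitochondrially encoded to nuclear reads lies at 3.62 to 4.26 in wild type and 2.06 to 2.89 in null tumours, while the mitochondrially encoded share alone overlaps.

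Within the mitochondrial genome, all 6 tested complex I genes had negative fold changes, from -0.75 to -0.08, and the 3 complex IV genes ranged from -0.3 to 0.18. The mt-Nd genes encode core membrane subunits of complex I. mt-Nd2 had the lowest fold change, at 1216, 1388 and 898 CPM in wild type and 648, 894.5 and 530 CPM in null tumours. It was the only mitochondrially encoded member whose groups did not overlap, by a narrow gap between wild-type library 3 and null library 2 (log2 difference -0.75, SE 0.3, edgeR adjusted p = 0.147; 8.33% of 12, against 14.3% of all genes tested below). mt-Nd1 stood at 3857, 3643 and 2400 CPM in wild type and 1756, 2898 and 2026 CPM in null tumours (difference -0.57 on the log2 scale, edgeR adjusted p = 0.291). mt-Nd4 stood at 2719, 2906 and 1905 CPM in wild type and 1218, 2343 and 1493 CPM in null tumours (difference -0.57 on the log2 scale, edgeR adjusted p = 0.296). In both genes null library 2 overlapped wild type while null libraries 1 and 3 lay lower than all wild-type libraries. mt-Nd3 was at 835.5, 670 and 594 CPM in wild type and 605, 555 and 529 CPM in null tumours (difference -0.32 on the log2 scale, edgeR adjusted p = 0.476), with null library 1 just above wild-type library 3. mt-Nd5 was at 281, 418 and 296 CPM in wild type and 357, 280 and 285.5 CPM in null tumours (difference -0.08 on the log2 scale, edgeR adjusted p = 0.873), with no order between the groups.

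mt-Nd6 is the only protein gene of this genome on the light strand. It stood at 642, 620.5 and 280 CPM in wild type and at 316, 472 and 372 CPM in null tumours, and wild-type library 3 was the lowest of all (-0.39, SE 0.33, edgeR adjusted p = 0.487). Its end overlaps mt-Nd5 by 14 bases on the opposite strand, and the strand setting of the counting is not given in the sources used here, so reads of those 14 bases cannot be assigned.

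The core subunits of cytochrome c oxidase had fold changes on both sides of 0. mt-Co1, the catalytic subunit, stood at 5248, 6610 and 3392 CPM in wild type and 5558, 5657 and 6093 CPM in null tumours (0.18, SE 0.33, edgeR adjusted p = 0.756). mt-Co3 stood at 5814, 6653 and 3636 CPM in wild type and 5416, 5888 and 6598 CPM in null tumours (difference 0.15 on the log2 scale, edgeR adjusted p = 0.797). mt-Co2, which receives electrons from cytochrome c, stood at 4874, 5412 and 2889 CPM in wild type and 2902, 3828 and 3982 CPM in null tumours (difference -0.3 on the log2 scale, edgeR adjusted p = 0.599). For all 3 genes the null values lay within the wild-type range, and leaving out wild-type library 3 gave mt-Co1 and mt-Co3 values of -0.07 and -0.09 (log2). mt-Cytb, the complex III subunit that holds the quinone sites, stood at 3995, 4042 and 2012 CPM in wild type and 2513, 3135 and 2671 CPM in null tumours (difference -0.27 on the log2 scale, edgeR adjusted p = 0.641), also within the wild-type range.

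Set against each other within a library, reads of the mt-Nd genes over those of the mt-Co genes were 0.599, 0.516 and 0.643 in wild type and 0.353, 0.484 and 0.314 in null tumours. The mean was 0.586 ± 0.0641 in wild type and 0.384 ± 0.0891 in null tumours (SD, n = 3). The groups did not overlap, though null library 2 lay near wild-type library 2. Of all mitochondrially encoded member reads, mt-Nd1 made up 13%, 11.12% and 13% in wild type and 8.16%, 11.06% and 8.17% in null tumours, so null library 2 lay just below wild-type library 2. mt-Co3 made up 19.5%, 20.3% and 19.7% in wild type and 25.2%, 22.5% and 26.6% in null tumours, with every null library higher. Such shares were without overlap also for mt-Nd2 (null lower) and mt-Co1 (null higher), and overlapped for 9 of the 13, mt-Nd4l with 0 reads included. By CPM, a measure unlike these shares, 30.5% of all genes tested did not overlap in either direction. These contrasts within the genome were chosen after the values were seen and carry no test. Transcripts of the 2 mitochondrial ribosomal RNAs were both called lower in null tumours (mt-Rnr1 -2.04, edgeR adjusted p = 0.00289, and mt-Rnr2 -2.39, 0.00304), against 3.52% of all genes tested. Their reads over those of the protein-coding members were 0.13, 0.155 and 0.428 in wild type and 0.059, 0.0493 and 0.0388 in null tumours. Wild-type library 3 thus lay far above the other wild-type libraries, and the cause was not tested.

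**Figure D4:**
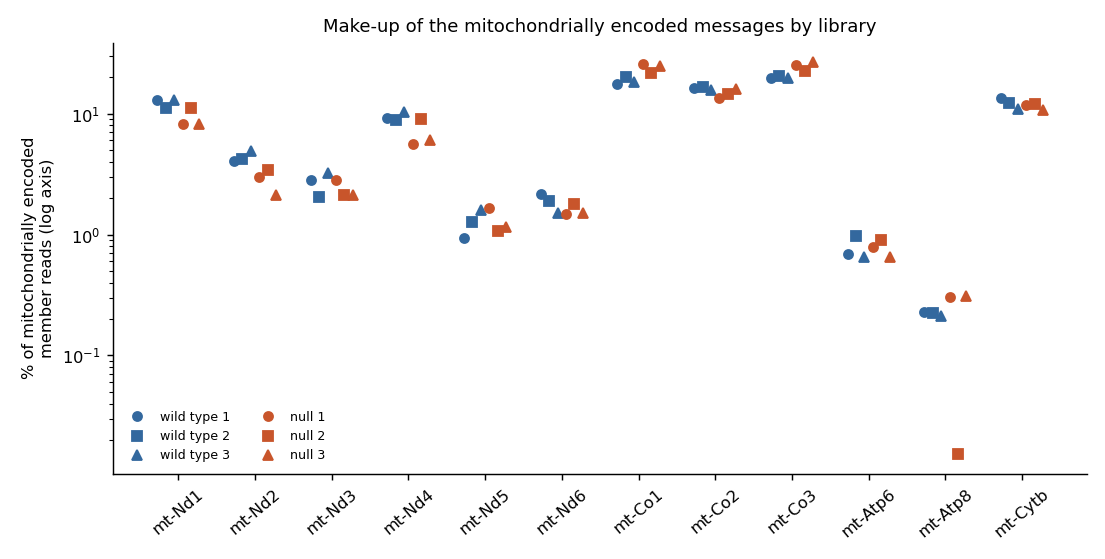
Share of each mitochondrially encoded gene among the reads of all 13 (vertical axis, percent, log scale), by library, with wild type in blue and null in orange. The null libraries lie lower for mt-Nd1 and mt-Nd2 and higher for mt-Co1 and mt-Co3, and null library 2 stands far below the other 5 for mt-Atp8, at 0.0152%.

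The genes of the ATP synthase pair overlap each other, and mt-Nd4l overlaps its neighbour. The end of mt-Atp8 shares 43 bases with mt-Atp6, and the end of mt-Nd4l shares 7 bases with mt-Nd4, and reads that touch both genes of a pair can be counted as ambiguous. The last 60 bases of each first gene are printed, in the sense of the message, to show the stretch where reads of the pair cannot be told apart, and capitals mark the shared bases.
mt-Atp8, shared with mt-Atp6 at chrM:7927-7969: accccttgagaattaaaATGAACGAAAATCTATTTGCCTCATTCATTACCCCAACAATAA
mt-Nd4l, shared with mt-Nd4 at chrM:10167-10173: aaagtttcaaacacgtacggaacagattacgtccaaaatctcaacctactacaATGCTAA
The positions are those of GRCm38, not of the build named by the submitters. mt-Nd4l is 297 bases long and mt-Atp8 204 bases. mt-Nd4l had 0 reads in each library, also in null library 2, where 3 reads would stand at 0.0953 CPM, although its neighbour mt-Nd4 had 73927 reads there. mt-Atp8 had 87, 12 and 628 reads in wild type and 71, 126 and 393 reads in null tumours, or 67.9, 73.7 and 39.2 CPM against 65.4, 3.99 and 77.3 CPM. Null library 2, the deepest, thus lay far below the others, and the fold change had no usable precision (-0.25, SE 0.88, edgeR adjusted p = 0.889, and 0.33 without null library 2). mt-Atp6 stood at 205, 319.5 and 122 CPM in wild type and 169, 236 and 160.5 CPM in null tumours, with no order between the groups (-0.1, edgeR adjusted p = 0.879). The reason for the low mt-Atp8 count and the absent mt-Nd4l count was not tested.

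Per kilobase of the principal transcript (GENCODE M21), levels of the mitochondrially encoded messages spanned and exceeded those of the nuclear ones. In wild type mt-Co3 (6847 CPM per kilobase), mt-Co2 (6421), mt-Nd1 (3448) and mt-Co1 (3290) were highest, and mt-Atp6 (316), mt-Atp8 (295.5) and mt-Nd5 (182) were the lowest of those detected, below the leading nuclear genes. Among nuclear members Cox4i1 (620), Atp5b (488), Cox6a1 (434) and Atp5g3 (376) were highest, and Ndufs1 (21.4) and Atp5g1 (9.87) lowest. The place of Atp5g1 depends on the length used, 4715 bases, the longest transcript marked as principal. Before division by length its wild-type mean of 46.6 CPM was above that of Uqcrb (35.9 CPM). In null tumours the leading nuclear genes were Cox4i1 (997), Cox6a1 (752), Atp5b (615) and Atp5g3 (546), so Cox6a1 passed Atp5b in the order, though Atp5b ranged from 173 to 709 CPM per kilobase within wild type alone. Many nuclear members have processed pseudogenes, and the mitochondrial genome has nuclear copies, so reads that align to more than 1 place may be missing from any of these genes.

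Genes around the chain gave the context from lists of the pathway. Of 33 further subunits of complexes I, III, IV and V, 1 rose (3.03%, against 2.26% of all genes tested) and 0 fell. Of the 33, 30 were positive, with a median log2 fold change of 0.51 (0.29 without wild-type library 3 and 0.07 with the length and GC offset). The gene that rose was Ndufb6, a membrane arm subunit of complex I, at 19.5, 12.3 and 12.4 CPM in wild type and 55.3, 33.4 and 39.9 CPM in null tumours (1.5, SE 0.33, edgeR adjusted p = 0.0227). Its null libraries all lay above wild type, and the call was lost when wild-type library 3 was left out (edgeR adjusted p = 0.132), without null library 1 (0.0866) or 3 (0.0694) and with the length and GC offset (0.1). Of 76 tested mitochondrial ribosomal protein genes 1 rose (1.32%, against 2.26% of all genes tested), Mrps34 (1.96, edgeR adjusted p = 0.0356). Of the 76, 68 were positive (median 0.45, or 0.28 without wild-type library 3 and 0.23 with the offset). Mrps34 had overlapping groups, and its call was lost with DESeq2 (adjusted p = 0.0994) and in edgeR without wild-type library 3 (0.214), without null library 1 (0.082), 2 (0.0593) or 3 (0.18) and after summing libraries of equal mouse number (0.0677).

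Further lists were 42 tested assembly factors, 17 genes of the citric acid cycle and pyruvate dehydrogenase, 19 import, carrier and membrane genes, and 30 genes of mitochondrial DNA replication, transcription and RNA processing. None of these genes passed in edgeR, and the medians were 0.55, 0.33, 0.16 and -0.02 in this order. The assembly factor median was 0.14 without wild-type library 3 and 0.15 with the length and GC offset. At an unadjusted p under 0.05, 8, 4, 4 and 2 genes were higher (19.05%, 23.53%, 21.05% and 6.667%, against 12.1% of all genes tested). In the same order 0, 0, 1 and 3 were lower, and 25.1% of all genes tested reached it in either direction. Of 12 regulators of mitochondrial biogenesis 8 were tested and none passed (median -0.32, 1 at an unadjusted p under 0.05). Pprc1, a coactivator of the PGC-1 family, had null values below all wild-type values, at 58.6, 43 and 57.4 CPM against 15.7, 35.8 and 30.9 CPM (-0.94, edgeR adjusted p = 0.0796). Nrf1 and Yy1, which encode the factors of the promoter letters above, stood at -0.38 and 0.49, and neither passed. Of 10 alternative or related forms of these subunits 2 were tested, the hypoxia-induced Ndufa4l2 (-1.15, edgeR adjusted p = 0.194) and Cox7a2l, a supercomplex factor (-0.09). The muscle isoforms Cox6a2, Cox7a1 and Cox8b had at most 61 reads in any library.

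**Figure D5:**
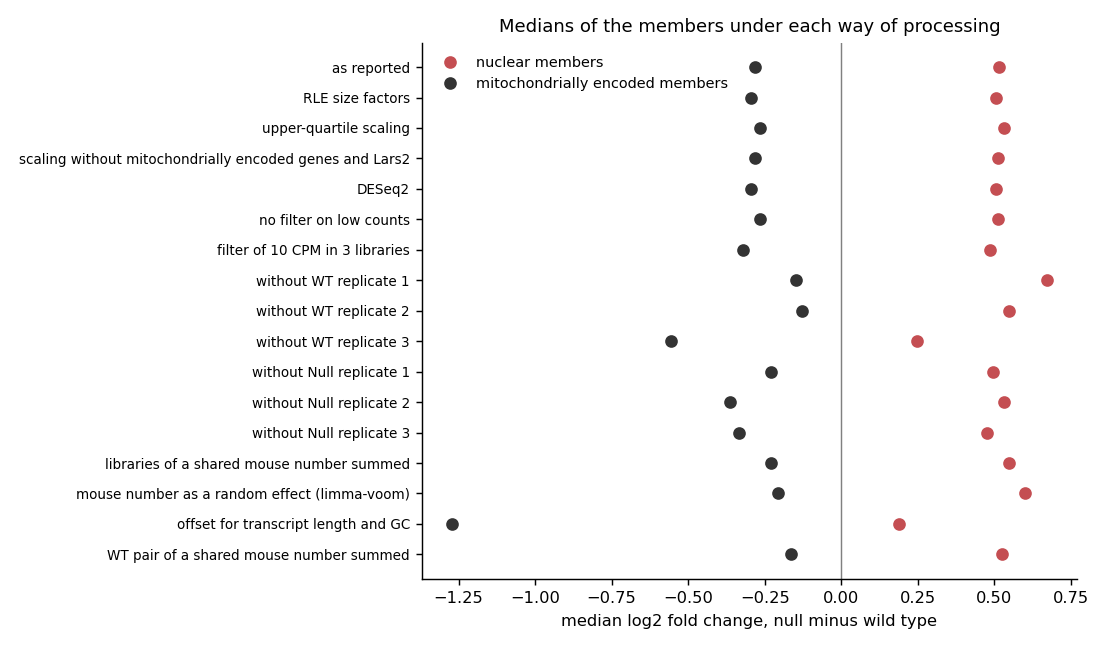
Median log2 fold change (horizontal axis, null minus wild type) of the 44 nuclear members and the 12 tested mitochondrially encoded members, for the values as reported and under 16 other ways of processing (vertical axis). The nuclear median stays above 0 and the mitochondrially encoded median below 0 in all of them, from 0.19 to 0.67 and from -1.27 to -0.13.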

How the data were processed

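Total RNA of 6 tumours was sequenced, 3 libraries per genotype. Each deposited file gives raw counts by Ensembl identifier and closes with 5 lines of unassigned reads, which stayed out of library sizes and tests. Per the submitters' processing notes, TopHat2, Cuffdiff, DESeq2 and the mm9 build were used, with no version or role. The counter, its strand use and annotation: not given in the sources used here. Symbols came from GENCODE M21 (32919 of 37991 identifiers, 86.6%), and GRCm38 positions are given only for printed sequences.

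Counts were tested in R 4.3.3 with edgeR 4.0.16 (TMM, default filter, robust quasi-likelihood fit over all 6 libraries, adjusted p under 0.05), and SE is the log2 fold change over the root of F. Alternatives used DESeq2 1.42.0, limma 3.58.1, other scalings and filters, summed libraries, single libraries left out and an offset from mgcv 1.9.3. Fits were tested on simulated data. Named genes were all mitochondrial members, called members, and the highest and lowest of each complex, plus called genes of the pathway lists. Called markers of cell types were not all named. Further genes are named by value. Members and lists were chosen with earlier results of these data known. The floor of 3 counts was 0.0953 to 18.6 CPM.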

Additional observations from a re-analysis of the deposited data

How the results depend on the processing

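The 16 alternatives kept the sign of both medians. The median of the nuclear members was 0.19 with the length and GC offset and ranged from 0.25 (wild-type library 3 left out) to 0.67 over the fits with 1 library left out. The mitochondrially encoded median was -1.27 with that offset, and 2 of the mitochondrially encoded genes were called there, among 564 called over all genes. Called nuclear members numbered 1 with a filter of 10 CPM in 3 libraries, 0 when libraries of equal mouse number were summed, 0 when only the wild-type pair was summed (chosen after seeing the data), 0 with the offset, 7 with mouse number as a random effect, and 0 to 5 with 1 library left out (5 when it was wild-type library 1, and 0 when it was wild-type library 2 or 3 or null library 1 or 3). Among all genes tested, 688 were called as reported, 1156 with the random effect and 179 to 855 with 1 library left out: 281 when it was wild-type library 3, 179 when it was null library 1 and 225 when it was null library 3.

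Log2 fold changes changed sign in at least 1 alternative for 14 of the 44 nuclear and 5 of the 12 mitochondrially encoded members, 0 of them called. Among the genes named by rule, over the fits with 1 library left out, Ndufa5 ranged from -0.417 to 0.023, Cycs from -0.127 to 0.587, mt-Nd5 from -0.206 to 0.098, mt-Co1 from -0.065 to 0.428, mt-Co3 from -0.089 to 0.348, mt-Atp6 from -0.418 to 0.234 and mt-Atp8 from -0.932 to 0.334. The sign changed on leaving out wild-type library 3 for Ndufa5, Cycs, mt-Co1 and mt-Co3, leaving out wild-type library 2 for mt-Nd5 and mt-Atp6, and leaving out wild-type library 1 (0.004) or null library 2 for mt-Atp8. With the length and GC offset the values were -0.238 for Cycs, -0.748 for mt-Co1 and -0.868 for mt-Co3. Summing libraries of equal mouse number gave 0.093 for mt-Nd5 and 0.226 for mt-Atp6, the random effect gave 0.111 and 0.27, and summing only the wild-type pair gave 0.036 and 0.157. The cause was not tested. No paired analysis was possible because the genotypes share no mouse number, and some replicates of a genotype have an equal number in their titles. Depth limits wild-type library 2 most, where 3 reads stand at 18.6 CPM and nuclear members had 5 to 221 reads.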
